A study of Mus musculus with 50 samples.

Results

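Hemoglobin and erythroid genes were followed, library by library, in RNA sequencing of the frontal cortex of wild-type and Setd1a+/- mice. The genes were a list of 8 given by name, out of 55487 genes in the deposited count tables. They comprise the adult alpha-globin genes Hba-a1 and Hba-a2, the embryonic alpha-like globin gene Hba-x, the adult beta-globin genes Hbb-bs and Hbb-bt, the embryonic beta-like globin gene Hbb-y, and the erythroid genes Alas2 and Slc4a1. All 8 were found by symbol in the GENCODE vM21 annotation and all 8 passed the filter on low counts, as did 16330 protein-coding genes in all. At each of the ages E14, E18, P7, P35 and P70, libraries were made from 5 mice per genotype, 50 libraries in all. The Setd1a+/- mice carried 1 copy of the tm1d loss-of-function allele in all tissues, so that blood-forming cells carried it too, and the wild-type mice served as controls. The labels give C57BL/6NTac for both genotypes, whereas the methods of the study give a mixed background with C57BL/6J, male mice, and slightly later embryonic ages. At embryonic ages the methods describe the dissected tissue as frontal brain regions, and at postnatal ages as frontal cortex. RNA was taken from a part of the same homogenate that served for synaptosome preparation, and polyadenylated RNA was sequenced in a single batch.

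Hemoglobin carries oxygen in red blood cells and is built from alpha-like and beta-like globin chains, each holding a heme group. The first red cells of the mouse embryo arise in the yolk sac and make embryonic globins, among them those encoded by Hbb-y and Hba-x, and they are followed by red cells from the fetal liver and later the bone marrow, which make the adult globins. Alas2 encodes the erythroid form of the enzyme that starts heme synthesis, and Slc4a1 encodes band 3, the anion exchanger of the red cell membrane. In dissected brain these transcripts are mostly known as traces of young red cells in blood vessels, although low globin expression by brain cells has also been described. In bulk tissue, fewer red cells and less globin RNA per red cell cannot be told apart.

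The alpha-like genes lie on chromosome 11 of GRCm38 in the annotation, Hba-x at 32276400 to 32278116, Hba-a1 at 32283511 to 32284465 and Hba-a2 at 32296489 to 32297298, on the plus strand and with 3 exons in the longest transcript of each. The beta-like genes lie on the minus strand of chromosome 7, Hbb-bt at 103812524 to 103813996, Hbb-bs at 103826534 to 103828096 and Hbb-y at 103851749 to 103853216, also with 3 exons each. Slc4a1 lies on chromosome 11 at 102348824 to 102366203 and Alas2 on chromosome X at 150547375 to 150570638. The adult copies within each locus are close relatives. Of all 150-base windows of the longest Hba-a1 transcript, 48.4% occur letter for letter in a transcript of Hba-a2, and of those of Hba-a2, 65.7% occur in Hba-a1. The corresponding shares were 58.7% for Hbb-bs with Hbb-bt and 50.7% for Hbb-bt with Hbb-bs. No window of Hba-x, Hbb-y or Slc4a1 was shared with another gene, and 8.63% of those of Alas2 were shared with Apex2. Fragments that fit several places equally well were not counted, so the level of each adult copy, and the split between the copies, is uncertain, whereas the embryonic genes were counted without this limit.

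The upstream stretches of 3 genes are shown because these genes had different courses over age: Hbb-y was abundant at E14 and had at most 7 counts in any later library, and Hbb-bs and Hba-a2 were present in all 50 libraries. The sequences are from RefSeq on GRCm38.p6, where 7 of the 8 genes had an entry and Slc4a1 had none, and each is the unbroken stretch nearest the start that lies outside exons of the GENCODE annotation. Some matches counted below therefore lie outside the printed part, in annotated exons or upstream of them, among them the AGATAA match of Hbb-bs at -210. Positions count from the RefSeq start, and capitals mark 5 motifs on either strand. TATAA is the core of the box that bears its name. CCAAT is the box of that name. CACCC is bound by KLF family factors. AGATAA is bound by GATA factors, and so is the variant TGATAA.
Hbb-y, chr7:103853217-103853457, minus strand, bases -250 to -10: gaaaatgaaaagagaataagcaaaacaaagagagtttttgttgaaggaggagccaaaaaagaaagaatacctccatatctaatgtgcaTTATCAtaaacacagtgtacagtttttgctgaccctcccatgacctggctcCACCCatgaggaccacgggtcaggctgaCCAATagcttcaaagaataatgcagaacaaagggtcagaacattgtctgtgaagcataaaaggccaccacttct
Hbb-bs, chr7:103827929-103828011, minus strand, bases -83 to -1: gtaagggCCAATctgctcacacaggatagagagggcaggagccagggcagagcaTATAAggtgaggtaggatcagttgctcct
Hba-a2, chr11:32296242-32296488, plus strand, bases -250 to -4: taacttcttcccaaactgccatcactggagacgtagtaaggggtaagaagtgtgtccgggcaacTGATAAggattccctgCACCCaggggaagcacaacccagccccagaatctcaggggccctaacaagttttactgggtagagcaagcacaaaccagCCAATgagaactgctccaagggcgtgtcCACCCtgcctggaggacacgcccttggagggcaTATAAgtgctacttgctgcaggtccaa
Within the full 250 bases before the start, TATAA was present in 6 of the 7 genes and absent in Hbb-y, CCAAT in 5, CACCC in all 7, AGATAA in 2 and TGATAA in 4. Of 32851 RefSeq promoter windows of the same length, 22.8% held TATAA on either strand, 33.8% CCAAT, 52% CACCC, 9.99% AGATAA and 7.94% TGATAA. The first 3 of these motifs stood together in 4 of the 7 windows and in 3.28% of all windows. The windows of Hba-a1 and Hba-a2 shared an unbroken run of 247 bases, so the Hba-a2 stretch stands for both. TATAA and CCAAT began at -30 and -91 in Hba-a2 and at -29 and -76 in Hbb-bs. In Alas2 the TATAA matches began at -207 and, as the reverse complement, at -208, upstream of these positions. These matches are descriptions of the letters and not of binding.

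Total counts ranged from 35507165 to 43907318 per library, so 3 counts corresponded to 0.0699 to 0.0893 CPM (counts relative to library size) after TMM scaling. In the check of the targeted gene, Setd1a itself was not lower in Setd1a+/- libraries at the level of the whole gene: its CPM ranged from 70.2 to 136 in wild-type and from 76.4 to 150.2 in Setd1a+/- libraries, with a log2 fold change of 0.10 (SE 0.025, adjusted p = 0.00679, edgeR quasi-likelihood test). A gene-level count includes exons outside the deleted part, so this does not check the labels. Of the cortical marker genes, Map2, a neuronal cytoskeletal gene, averaged 1150.1 CPM over the 50 libraries. At E14, summed CPM of 4 meningeal genes ranged from 6.08 to 209 in wild-type and from 15.6 to 886 in Setd1a+/- libraries. That of 4 choroid plexus genes ranged from 0.382 to 405 and from 1.39 to 462. The E14 libraries thus differed among themselves in these genes, and whether the dissections differed was not tested. Xist, a transcript of the inactive X chromosome in females, had 60159 counts in the E14 wild-type library numbered 5 and 55644 in the E18 one numbered 2, beside at most 27 elsewhere, although the methods describe male mice. The E14 library was also among the highest in globin RNA, and the genotype comparison at E14 and the count ratios, the Hbb-y share and the correlations of the embryonic genes are also given without it.

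The embryonic globins Hbb-y and Hba-x were abundant at E14 and had at most 7 counts in any later library. Hbb-y in CPM was 46.4, 4.17, 24.5, 31.6 and 256 in wild-type replicates 1 to 5 at E14, and 30.7, 19.8, 67.7, 124 and 172 in the Setd1a+/- replicates. The genotypes overlapped, and the 10 libraries spread over a range of 61.4-fold. Hba-x was 8.08, 2.09, 5.31, 4.87 and 26.9 CPM in wild-type and 8.02, 7.03, 11.4, 24.3 and 25.6 CPM in Setd1a+/- libraries at E14, a range of 12.9-fold. Both ranges rest on the low wild-type replicate 2, without which, in omissions chosen after seeing the data, they were 12.97-fold for Hbb-y and 5.52-fold for Hba-x, beside 3.77-fold to 4.69-fold for the other 6 genes without it. In counts, Hbb-y had 31486 over the 10 libraries at E14, with at least 154 in each, and 8 over the 10 libraries at E18. Scaled for library size, the E14 total was 3986 times that at E18, with an exact 95% interval of 2023 to 9234 that covers counting error only. Hba-x had 4939 counts at E14 and 5 at E18, a ratio of 1000.5 with an interval of 428 to 3083. Without wild-type replicate 5, an omission chosen after seeing the data, the E14 counts were 20636 for Hbb-y and 3801 for Hba-x, and the ratios were 2935 (1489 to 6799) and 865 (370.3 to 2665).

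After E18 these genes stayed at such traces. Hbb-y had 3, 12 and 15 counts over the 10 libraries at P7, P35 and P70, with at most 7 in any library, and Hba-x had 5, 1 and 1, with at most 2 in any library. At P35, 4 of 5 Setd1a+/- libraries and 1 of 5 wild-type libraries held any Hbb-y count, with 4, 3, 0, 2 and 2 counts against 0, 0, 0, 0 and 1. In wild-type replicate 5 the single count stood for 0.0289 CPM, and the highest Setd1a+/- library reached 0.102 CPM, close to the level of 3 counts. In edgeR's test across all genes the difference at P35 had an adjusted p of 1, and in an exact permutation test of log2 CPM, two-sided, p was 0.0476 before any correction. Of the 40 such tests, for 8 genes at 5 ages, 2 had a p under 0.05, this one and that of Slc4a1 at P70 below. The other listed globin genes of the beta locus were rarer. Hbb-bh1 reached 91 counts in its highest library and had medians of 0.349 CPM at E14 and 0 at each later age, Hbb-bh0 reached 26 counts, and Hbb-bh2 and Hbb-bh3 had at most 1 count in any library. The theta-like genes Hbq1a and Hbq1b of the alpha locus took another course, with medians of 0.149 and 0.242 CPM at E14 and 0.793 and 1.39 CPM at P7. Hbb-bh1, too, passed the filter on low counts through E14 alone. In edgeR's test from E14 to E18, Hbq1a and Hbq1b rose by 1.12 and 1.10 on the log2 scale (adjusted p = 0.00459 and 9.71e-05).

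**Figure D1:**
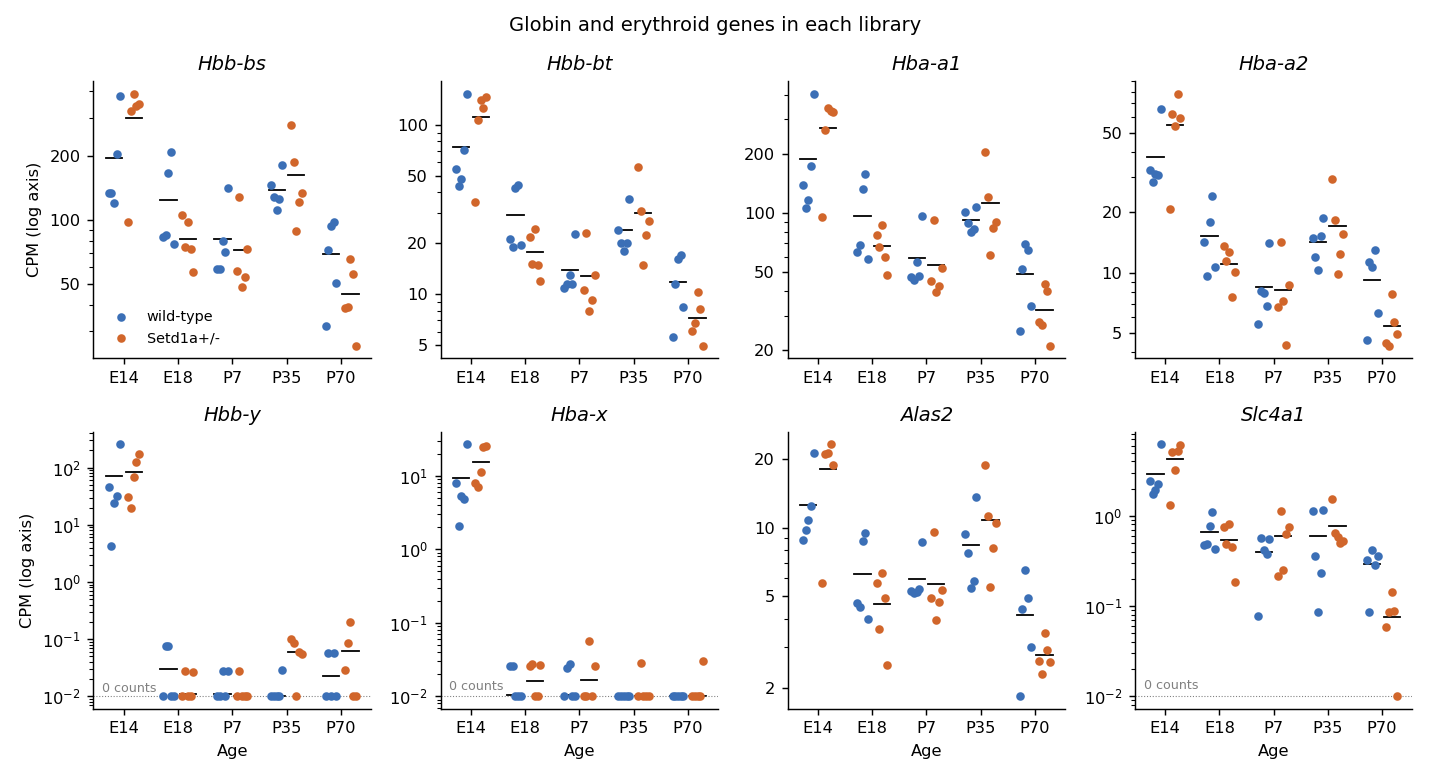
CPM of each of the 8 genes (log axis) in each library by age, with wild-type in blue, Setd1a+/- in orange and a bar at the mean of each group of 5. Libraries with 0 counts are drawn on the dotted line at 0.01. Hbb-y and Hba-x stand at 2.09 to 256 CPM at E14 and below 0.2 CPM afterwards, whereas the adult globin genes stay above 4 CPM at every age.

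The adult globin genes were present in all 50 libraries and were highest at E14. Hbb-bs, the more abundant adult beta-globin gene, was 133.5, 133.6, 119.8, 203.7 and 381 CPM in wild-type and 98.1, 324, 390.0, 343 and 349 CPM in Setd1a+/- libraries at E14. At E18 it was 83.0, 84.7, 165, 208 and 76.6 CPM in wild-type and 106, 74.5, 97.6, 73.2 and 56.7 CPM in Setd1a+/- libraries. The ages overlapped, since wild-type replicates 3 and 4 at E18 were above several libraries at E14. At P7 most libraries lay lower still, with 58.7, 58.7, 79.4, 70.6 and 141 CPM in wild-type and 57.7, 128, 48.6, 53.8 and 73.3 CPM in Setd1a+/- libraries. Wild-type replicate 5 and Setd1a+/- replicate 2 stood above the other 8 libraries of that age. At P35 Hbb-bs was higher again, at 146, 128, 111, 126 and 180.2 CPM in wild-type and 277, 188, 88.9, 121 and 134 CPM in Setd1a+/- libraries. At P70 it reached its lowest levels, 31.9, 72.2, 93.9, 98.2 and 50.8 CPM in wild-type and 38.5, 39.2, 65.4, 55.7 and 25.8 CPM in Setd1a+/- libraries. Within each genotype all P35 libraries lay above all P70 libraries, while across genotypes Setd1a+/- replicate 3 at P35, at 88.9 CPM, lay below wild-type replicates 3 and 4 at P70.

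Compared per length of exon (RPKM, CPM per kilobase on TMM-scaled library sizes), the order of the genes was Hbb-bs, Hba-a1, Hbb-bt, Hbb-y, Hba-a2, Hba-x, Alas2 and Slc4a1 at E14. Mean RPKM over the 10 libraries at E14 was 322 ± 156 for Hbb-bs, 284 ± 144 for Hba-a1, 131.6 ± 66.6 for Hbb-bt, 123 ± 129 for Hbb-y, 69.3 ± 29.5 for Hba-a2, 13.2 ± 10.1 for Hba-x, 6.35 ± 2.66 for Alas2 and 0.727 ± 0.392 for Slc4a1 (SD, n = 10). The ranges of neighbours overlapped except between Hba-a2 and Hba-x and between Alas2 and Slc4a1. Within the libraries the order was steadier, since Hbb-bs exceeded Hba-a1 in 9 of 10 and Hba-a1 exceeded Hbb-bt in 10 of 10, while Hbb-bt exceeded Hbb-y in 7 of 10. From E18 onwards the first 5 places were held by Hbb-bs, Hba-a1, Hbb-bt, Hba-a2 and Alas2 in that order, and Hbb-bs exceeded Hba-a1 in all 10 libraries of each age. Hbb-bt exceeded Hba-a2 in 10 of 10 libraries of each age up to P35 and in 8 of 10 at P70. The lowest places were not ordered beyond their spread, with Slc4a1 at 0.0374 ± 0.0298 and Hbb-y at 0.0672 ± 0.0993 mean RPKM at P70 (SD, n = 10). Together the 6 globin genes took 0.0708% of all counts at E14, on average over 10 libraries, and 0.0223% at E18, while the postnatal averages were 0.0150% (P7), 0.0268% (P35) and 0.0103% (P70). The lowest share in any library was 0.00514%, in a Setd1a+/- library at P70, and the highest was 0.133%, in wild-type replicate 5 at E14.

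Between consecutive ages, with genotype as a covariate, edgeR's test called the 4 adult globin genes, Alas2 and Slc4a1 lower at E18 than at E14, all 6 of 6, where 37.3% of all tested genes were called lower. Hbb-y and Hba-x passed the filter on low counts through the E14 libraries alone, so that their lower level at E18 is a description, given by the count ratios above. The log2 fold changes of the 6 genes ranged from -1.29 to -2.56. Hbb-bs fell by 1.29 on the log2 scale (SE 0.27, 2.45-fold lower, adjusted p = 3.37e-05) and Hbb-bt fell by 2.00 (SE 0.28, 4.00-fold lower, adjusted p = 1.44e-08). Hba-a1 fell by 1.505 and Hba-a2 fell by 1.82, with adjusted p of 1.40e-06 and 4.35e-09. Alas2, the erythroid heme synthesis enzyme, fell by 1.49 (SE 0.25, adjusted p = 6.79e-07). Slc4a1, the red cell anion exchanger, fell by 2.56 (SE 0.37, 5.89-fold lower, adjusted p = 3.56e-08), from 1.32 to 6.19 CPM at E14 to 0.186 to 1.11 CPM at E18, ranges that did not overlap. The median over the 6 genes was -1.66, beside -0.0025 over all tested genes.

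From E18 to P7 edgeR called 2 of the 8 genes lower and none higher, where 38.2% of all tested genes were called lower. These were Hbb-bt, which fell by 0.81 on the log2 scale (SE 0.28, adjusted p = 0.00862), and Hba-a2, which fell by 0.65 (SE 0.24, adjusted p = 0.0143). Hba-a1 had a log2 fold change of -0.53 (SE 0.26) with an adjusted p of 0.0585, and it was called with scaling by library size only (adjusted p = 0.0399) and without both libraries with Xist counts (adjusted p = 0.0465). Hbb-bs had a log2 fold change of -0.41 (SE 0.27, adjusted p = 0.162). Alas2 had a log2 fold change of 0.10 (SE 0.25, adjusted p = 0.73), and Slc4a1 of -0.27 (SE 0.40, adjusted p = 0.538). Alas2 lay between 2.501 and 9.43 CPM at E18 and between 3.93 and 9.59 CPM at P7.

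From P7 to P35 the 4 adult globin genes and Alas2 rose, which made 5 of the 8 genes called higher, where 37.9% of all tested genes were called higher. The log2 fold changes were 1.03 for Hbb-bt (SE 0.28, 2.04-fold, adjusted p = 9.73e-04), 0.97 for Hbb-bs (SE 0.27, 1.96-fold, adjusted p = 0.00114), 0.91 for Hba-a2, 0.86 for Hba-a1 and 0.72 for Alas2 (SE 0.25, adjusted p = 0.0076). Slc4a1 had a log2 fold change of 0.45 (SE 0.40, adjusted p = 0.3). From P35 to P70 the same 5 genes and Slc4a1 fell, 6 of the 8, where 4.91% of all tested genes were called lower. At this step most genes were not called, with 10.2% called in either direction. Hbb-bt fell by 1.53 on the log2 scale (SE 0.29, 2.88-fold lower, adjusted p = 2.90e-04), Alas2 fell by 1.48 (SE 0.26, 2.78-fold lower, adjusted p = 9.02e-05) and Hbb-bs fell by 1.41 (SE 0.27, 2.65-fold lower, adjusted p = 3.64e-04). Hba-a1 fell by 1.35 and Hba-a2 fell by 1.11, with adjusted p of 3.94e-04 and 0.00199. Slc4a1 fell by 1.86 (SE 0.45, adjusted p = 0.00477), at 3 to 61 counts per library at P35 and 0 to 14 at P70. The median over the 6 genes without Hbb-y and Hba-x was 0.89 for the step to P35 and -1.44 for the step to P70, beside medians of -0.0025 and 0.0011 over all tested genes. The adult globin genes and Alas2 moved together within groups, as given below, so the genes counted at each step are not independent. Whether the amount of blood left in the dissected tissue differed between ages was not tested.

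The 2 adult beta-globin genes did not keep a fixed proportion. The RPKM of Hbb-bt divided by that of Hbb-bs in the same library was 0.356 to 0.455 at E14 and 0.222 to 0.280 at E18, and after birth it was 0.176 to 0.215 (P7), 0.171 to 0.224 (P35) and 0.161 to 0.211 (P70). The 10 libraries at E14 all lay above the 40 later libraries, and at E14 the genotypes overlapped, the wild-type libraries averaging 0.413 ± 0.042 and Setd1a+/- libraries 0.400 ± 0.034 (SD, n = 5). The ratio varied by at most 1.31-fold among the 10 libraries of any age, although Hbb-bs itself varied by 2.90-fold to 3.98-fold among them. For the adult alpha-globin genes, Hba-a2 over Hba-a1 was 0.190 to 0.327 at E14 and 0.126 to 0.286 over the later ages, with overlap between all ages. The sum of the alpha-like genes divided by that of the beta-like genes was 0.556 to 0.741 at E14 and stayed between 0.560 and 0.837 afterwards. Since the copies share much of their sequence, these ratios describe the uniquely counted fragments.

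**Figure D2:**
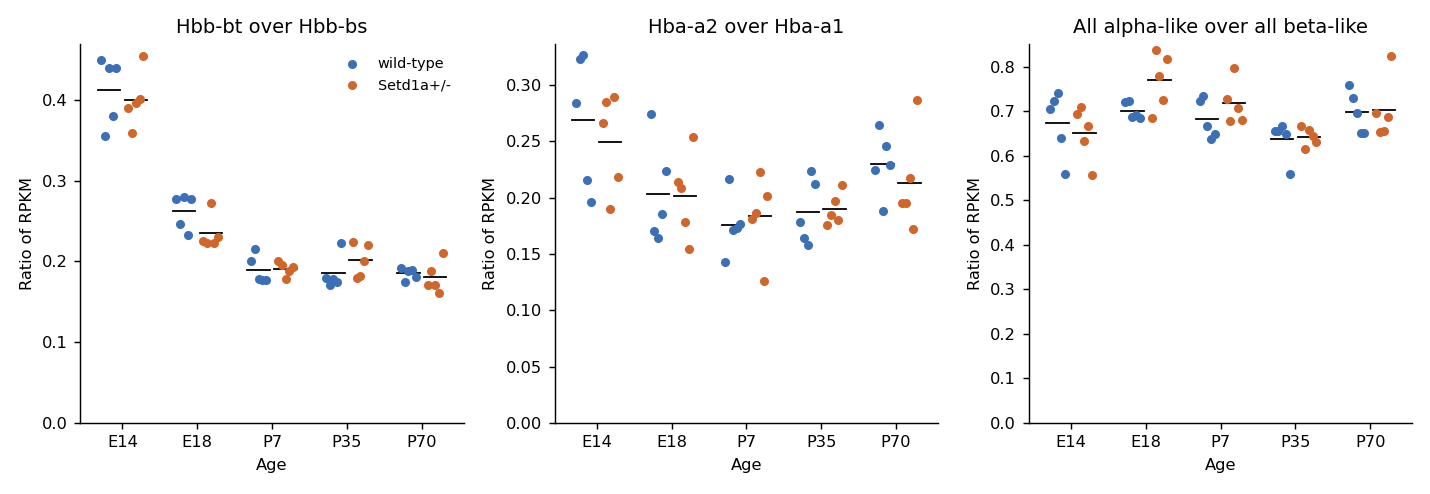
Ratio of RPKM of Hbb-bt to Hbb-bs, of Hba-a2 to Hba-a1, and of all alpha-like to all beta-like genes, in each library by age, with wild-type in blue, Setd1a+/- in orange and a bar at the mean of each group of 5. The ratio of the beta-globin copies is 0.356 to 0.455 at E14 and at most 0.280 later, while the other ratios overlap between ages.

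At E14 the embryonic genes formed a variable part of globin RNA. Hbb-y made up 22.5%, 2.72%, 14.7%, 12.0% and 36.2% of the summed RPKM of Hbb-y, Hbb-bs and Hbb-bt in wild-type replicates 1 to 5, and 21.4%, 5.17%, 13.1%, 23.9% and 29.1% in Setd1a+/- replicates. The genotypes overlapped fully in this share, with means of 17.6% ± 12.6 and 18.5% ± 9.44 (SD, n = 5), and the wild-type mean was 12.99% ± 8.17 (SD, n = 4) without replicate 5. The share of Hba-x in the alpha-like RPKM was 1.27% to 4.58% among wild-type libraries and 1.75% to 5.46% among Setd1a+/- libraries. Libraries with more Hbb-y had more Hba-x, with Pearson's r of 0.97 and Spearman's rho of 0.92 for log2 CPM over the 10 libraries at E14. Hbb-y followed the adult gene Hbb-bs less closely, with r of 0.64 and rho of 0.66. The library pairs that show this were wild-type replicates 1 and 2, which had a like Hbb-bs of 133.5 and 133.6 CPM but Hbb-y of 46.4 and 4.17 CPM, and Setd1a+/- replicates 2 and 5, with Hbb-bs of 324 and 349 CPM but Hbb-y of 19.8 and 172 CPM. Without wild-type replicate 5, r was 0.96 and rho 0.88 for Hbb-y with Hba-x, and r was 0.57 and rho 0.58 for Hbb-y with Hbb-bs, and over the omissions of each of the 10 libraries r ran from 0.94 to 0.98 and from 0.57 to 0.75. These correlations are descriptions over libraries of both genotypes. After E14 the embryonic share was at most 0.312% of beta-like RPKM in any library.

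**Figure D3:**
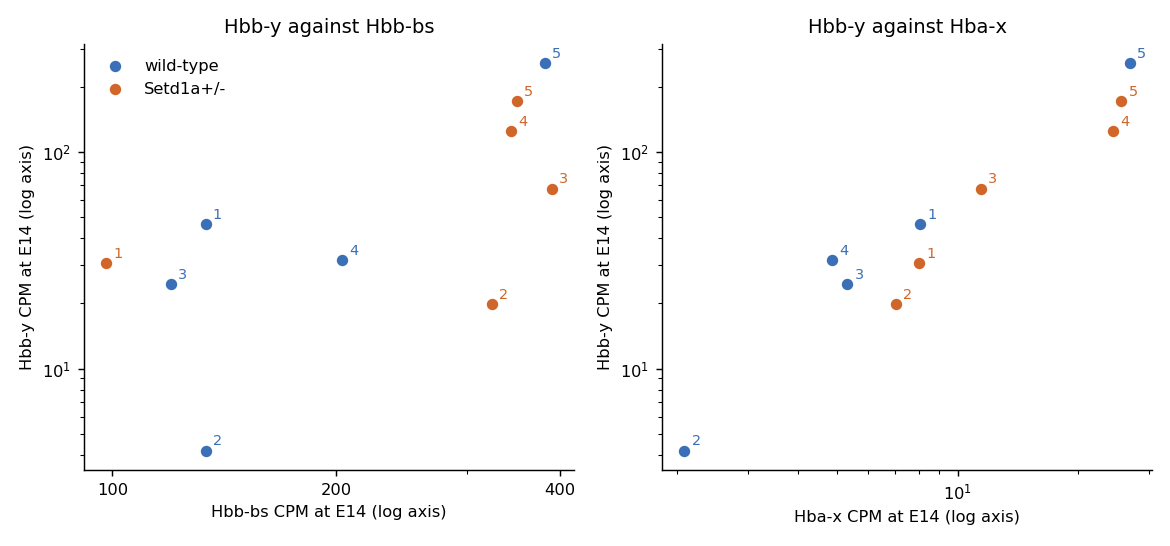
CPM of Hbb-y at E14 against that of Hbb-bs and of Hba-x (log axes), with 1 point per library, numbered by replicate, wild-type in blue and Setd1a+/- in orange. Wild-type replicate 5 has the highest Hbb-y, 256 CPM, and lies among the Setd1a+/- libraries in Hbb-bs, while wild-type replicate 2 has the lowest Hbb-y, 4.17 CPM.

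Genotype was then compared with age as a covariate. No gene of the 8 was called by edgeR's test, where 4.43% of all tested genes were called, and 1 of the 8, Hba-x, had an unadjusted p under 0.05, as did 14.5% of all tested genes. The log2 fold changes between Setd1a+/- and wild-type were -0.10 for Hbb-bs (SE 0.17, adjusted p = 0.87), -0.10 for Hbb-bt (SE 0.18), -0.08 for Hba-a1 (SE 0.16), -0.07 for Hba-a2 (SE 0.15), -0.02 for Alas2 (SE 0.16) and 0.09 for Slc4a1 (SE 0.25). For Hbb-y and Hba-x, which were informative at E14 alone, they were 0.24 (SE 0.44, adjusted p = 0.884) and 0.69 (SE 0.33, adjusted p = 0.307). DESeq2 called none of the 8. Limma-voom called 1, Hba-x, with a log2 fold change of 0.96 and an adjusted p of 0.0407, where it called 4.61% of all genes. Over the 10 alternatives to this fit, DESeq2 among them, 648 to 828 of all genes were called between genotypes, beside 723 in edgeR. In edgeR, the joint test of an age by genotype interaction called none of the 8 and none of the 16330 genes (0% called). The same test called 21 of all genes in DESeq2, 3 with the replicate number as a block and 13 without both libraries with Xist counts, and none of the 8 in any of these. At an unadjusted p under 0.05 edgeR's test had 1098 genes, 6.72% of all, among them Hba-a2 and Hbb-bt with adjusted p of 0.709 and 0.729. The median log2 fold change over the 8 genes for genotype was -0.04, beside 0.0012 over all tested genes.

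Age by age, edgeR called no gene of the 8 either, and at an unadjusted p under 0.05 there were 2, both at P70, where 6.55% of all tested genes were under it. Among all tested genes it called 0.129% at E14 and 0.11% at E18, while P7 had 0.735%, P35 0% and P70 0.233%. The direction of the adult globin genes differed between ages, with higher means in Setd1a+/- libraries at E14 and P35 and lower means at E18, P7 and P70, and the joint interaction test above did not call the change. At E14 the log2 fold change of Hbb-bs was 0.63 (SE 0.35, adjusted p = 0.524), and those of Hba-a1, Hba-a2, Hbb-bt, Alas2 and Slc4a1 lay between 0.51 and 0.58. At E18 it was -0.60 for Hbb-bs (SE 0.36, adjusted p = 0.548) and -0.73 for Hbb-bt (SE 0.37, adjusted p = 0.447), and the wild-type replicates 3 and 4 were the highest libraries. The same 2 libraries stood apart in summed CPM of the choroid plexus genes, at 231 and 191 beside at most 8.74 in the other libraries at E18, and of the endothelial genes, at 472 and 402 beside 167 to 329. In the meningeal genes wild-type replicate 1, with 83.0 CPM of Hbb-bs, was the highest library at E18, at 519. Wild-type replicates 3 and 4 had 425 and 403, beside at most 332 in the other libraries. Without wild-type replicate 3 or 4 at E18 the log2 fold change of Hbb-bs was -0.47 or -0.33, and the part of these cells in the difference was not tested. At P7, wild-type replicate 2 stood apart with 612 summed CPM of choroid plexus genes beside at most 2.64 in the other libraries, and with 1689 of the cortical genes beside 2535 to 2780, and without it the log2 fold change of Hbb-bs was -0.27. At P7 and P35 Hbb-bs had log2 fold changes of -0.18 (SE 0.36) and 0.23 (SE 0.35), and both turn direction when 1 library is left out, to 0.11 and -0.06.

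At P70, 2 of the 8 genes had an unadjusted p under 0.05. Hba-a2 was 4.60, 11.2, 10.7, 13.01 and 6.32 CPM in wild-type and 4.47, 4.33, 7.79, 5.67 and 4.97 CPM in Setd1a+/- libraries. The groups overlapped, and the log2 fold change was -0.75 (SE 0.33, adjusted p = 0.662), with an exact permutation p of 0.0714. Slc4a1 had 11, 3, 14, 10 and 13 counts in wild-type and 2, 3, 5, 3 and 0 counts in Setd1a+/- libraries at P70. The groups overlapped, since wild-type replicate 2 lay below Setd1a+/- replicate 3, and the log2 fold change was -1.91 (SE 0.77, adjusted p = 0.553). The exact permutation test of log2 CPM, two-sided over 252 splits with 0.00794 as the smallest possible p, gave p = 0.0317 before any correction. Hbb-bs at P70 had a log2 fold change of -0.63 (SE 0.36, adjusted p = 0.87). Summed CPM of the neutrophil genes at P70 was 1.57, 1.75, 3.92, 10.9 and 1.96 in wild-type and 0.668, 1.66, 0.565, 1.54 and 0.893 in Setd1a+/- libraries. Wild-type replicates 3 and 4, the highest libraries of this age in Hbb-bs at 93.9 and 98.2 CPM, were thus also the highest in these genes. The median log2 fold change between genotypes was -2.13 for the 5 tested neutrophil genes. None of the 5 was called, where 0.233% of all tested genes were called, and the part of these cells in the difference was not tested. The meningeal genes lay the other way, with 44.6 to 53.0 summed CPM in wild-type and 49.3 to 106.3 in Setd1a+/- libraries and a median log2 fold change of 0.49, and none of them was called. Setd1a+/- replicate 2 was the highest library of this age in the meningeal and, at 338, in the endothelial genes, and Setd1a+/- replicate 3 stood apart in the choroid plexus genes, with 37.6 summed CPM beside at most 9.45.

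The comparison at E14 turned on 1 library. Among wild-type libraries, replicate 5 was the highest in all 8 genes, and it is the library with Xist counts. Among Setd1a+/- libraries, replicate 1 was the lowest in Hbb-bs, Hbb-bt, Hba-a1, Hba-a2, Alas2 and Slc4a1. Alas2 was 8.78, 9.76, 10.8, 12.4 and 21.2 CPM in wild-type and 5.75, 20.9, 21.2, 23.1 and 18.8 CPM in Setd1a+/- libraries at E14. Wild-type replicate 5 thus lay within or above the range of the Setd1a+/- libraries, and Setd1a+/- replicate 1 lay below the whole wild-type range in those 6 genes. Without wild-type replicate 5, edgeR called Hba-x and Hbb-y higher in Setd1a+/- libraries at E14, with log2 fold changes of 1.59 (SE 0.35, adjusted p = 0.0147) and 1.64 (SE 0.40, adjusted p = 0.0209), where 2.3% of all genes tested were called higher. Without both libraries with Xist counts the same 2 genes were called at E14, where 4.63% of all genes were called, and over all ages, where 4.03% were called. At E14 without wild-type replicate 5, all 8 genes had an unadjusted p under 0.05, as did 21.7% of all tested genes beside 11.6% with all libraries, and log2 fold changes of 0.78 to 1.64, and the adult globin genes had adjusted p of 0.0655 for Hba-a1, 0.0765 for Hbb-bt, 0.0807 for Hbb-bs and 0.107 for Hba-a2. In an exact permutation test of log2 CPM over the remaining 4 wild-type and 5 Setd1a+/- libraries, two-sided over 126 splits and chosen after seeing the data, p was 0.0476 for Hba-x and 0.143 for Hbb-y, and the libraries of the genotypes still overlapped in all 8 genes. With age as a covariate, the same omission gave log2 fold changes of 1.49 for Hba-x (SE 0.29, adjusted p = 4.78e-04) and 1.55 for Hbb-y (SE 0.37, adjusted p = 0.00625), where 0.76% of all genes were called higher. Both genes were informative at E14 alone, so the fits over all ages rest on the same E14 libraries and add nothing from later ages. Without Setd1a+/- replicate 1, edgeR called none of the 8 genes at E14, where it called 2.59% of all genes, and 6 had an unadjusted p under 0.05, as did 14.5% of all genes. Summed CPM of the erythroid-restricted genes at E14 was 7.89 in wild-type replicate 5 and 3.25 to 4.95 in the other wild-type libraries, and without Epor, the erythropoietin receptor, 6.88 and 2.52 to 3.49. The same library was the highest of the wild-type libraries at E14 in the summed CPM of the endothelial (225.7 beside 149.8 to 184.7), meningeal (209), choroid plexus (405), platelet (9.50) and neutrophil genes (1.68). Among the Setd1a+/- libraries at E14, replicate 2 stood apart in the meningeal (886 beside 15.6 to 293) and endothelial genes (788 beside 156.8 to 299.9), and with all 10 libraries the median log2 fold change between genotypes was 1.79 for the meningeal and 0.76 for the endothelial genes. Setd1a+/- replicates 4 and 5, the highest of their genotype in Hbb-y and Hba-x, were the highest E14 libraries in the choroid plexus genes (444 and 462). Wild-type replicate 3 had 384 in the choroid plexus genes, with 24.5 CPM of Hbb-y and 5.31 CPM of Hba-x. The sex of the embryo and the amount of blood in wild-type replicate 5 cannot be told apart from its place in the group. Their part in the result, and that of meningeal, choroid plexus, vessel and other blood cells, was not tested.

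**Figure D4:**
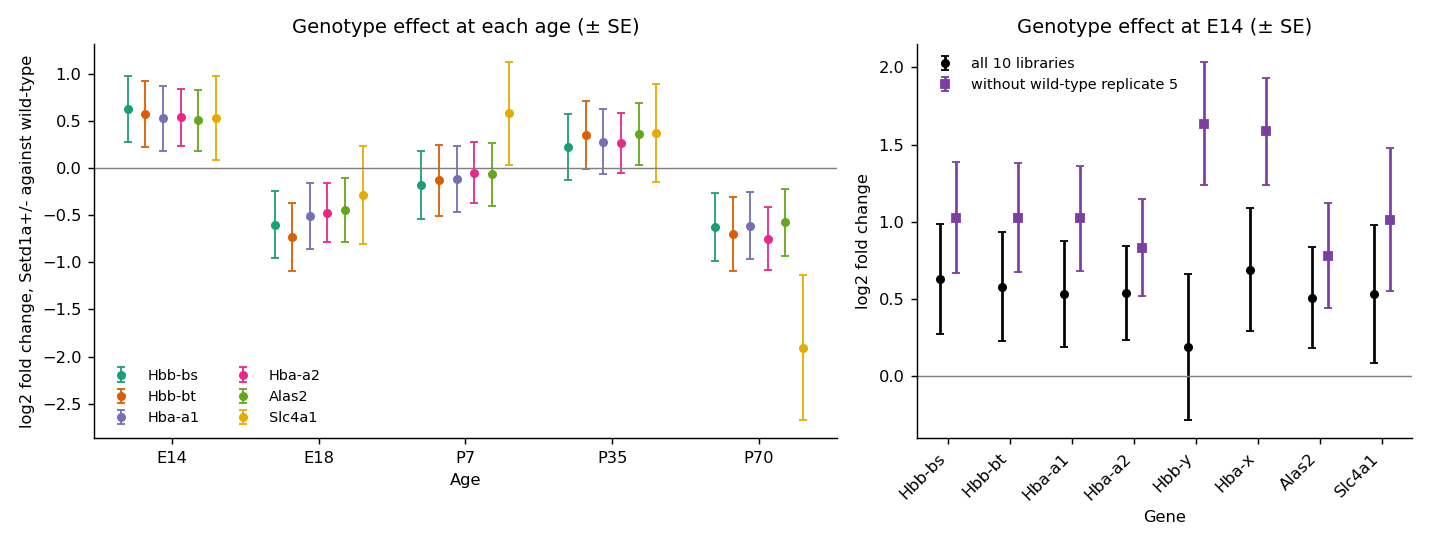
Log2 fold change between Setd1a+/- and wild-type libraries with its SE, for 6 genes at each age and for all 8 genes at E14 with all 10 libraries (black) and without wild-type replicate 5 (purple). The adult globin genes lie above 0 at E14 and P35 and below 0 at E18, P7 and P70, and at E14 all 8 values rise when the library is left out, from 0.19 to 1.64 for Hbb-y.

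Within groups the adult globin genes and Alas2 moved together from library to library. When each library's log2 CPM was taken as its deviation from the mean of its group, Pearson's r with Hbb-bs over the 50 libraries was 0.98 for Hba-a1 (rho 0.98), 0.98 for Hbb-bt (rho 0.97), 0.92 for Alas2 (rho 0.90), 0.90 for Hba-a2 (rho 0.84) and 0.66 for Slc4a1 (rho 0.69). Without the 2 libraries farthest from the median of Hbb-bs, these values were 0.98, 0.97, 0.90, 0.87 and 0.60. Within each age the r of Hba-a1 was at least 0.98 and that of Alas2 at least 0.87, while that of Slc4a1 ran from 0.34 at P70, where it had few counts, to 0.90 at E14. Hbb-y had r of 0.50 over all libraries and 0.61 at E14, and Hba-x 0.21 and 0.61. The value for Hba-x over all libraries became -0.06 without those 2 libraries and 0.02 with a prior count of 0.5. The points of 1 library share its depth and its tissue, so these are descriptions.

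**Figure D5:**
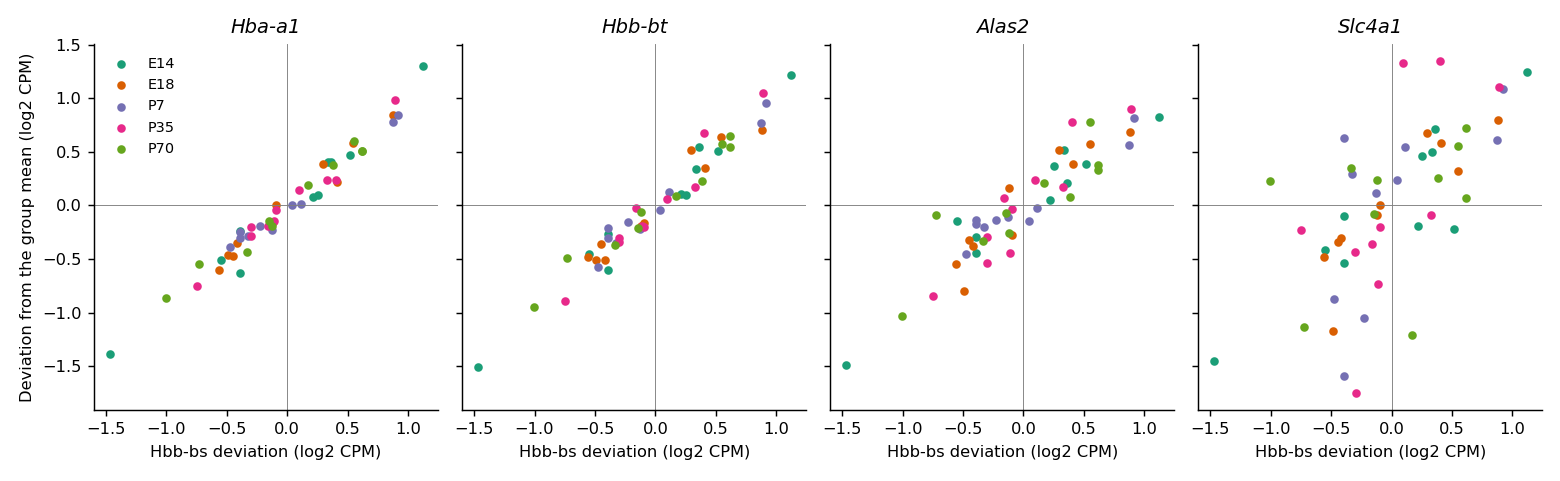
Deviation of log2 CPM from the group mean for Hba-a1, Hbb-bt, Alas2 and Slc4a1 against that of Hbb-bs, with 1 point per library coloured by age. The 50 points follow a line for Hba-a1 and Hbb-bt (r = 0.98 for both), scatter a little for Alas2 (r = 0.92) and scatter widely for Slc4a1 (r = 0.66).

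Among the other tested genes none had r of 0.8 or more with Hbb-bs. Those whose deviations were most like those of Hbb-bs over the 50 libraries were Ube2l6, a ubiquitin-conjugating enzyme (r = 0.72), Col8a1, a collagen chain (r = 0.62), Rilpl2 (r = 0.60), Btk, a kinase of B cells and myeloid cells (r = 0.58), and Lif, a cytokine (r = 0.57). Ube2l6 had a median of 6.77 CPM at E14 and 4.36 CPM at P70, and its lowest and highest libraries were at 3.36 and 10.2 CPM. By level instead of deviation, the genes most like Hbb-y over the 50 libraries were Nr2e1 (r = 0.96), Acss1 (r = 0.95), Hbb-bh1 (r = 0.95), Gpc4 (r = 0.95) and Isy1 (r = 0.95), and 979 of 16322 genes had r of at least 0.8, so this likeness marks genes high at E14. Nr2e1, a transcription factor of neural progenitors, had a median of 87.0 CPM at E14 and 19.03 CPM at E18.

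A list of 18 other genes was named erythroid-restricted, although the medians of Epor and Icam4 were highest at P70, where the adult globin genes were lowest, and 17 were found by symbol and 7 passed the filter on low counts. Of these, 4 passed through E14 alone, so that their lower level at E18 is a description and no support. From E14 to E18, of the other 3, Epor fell in edgeR's test, Icam4 rose and Ermap had a log2 fold change of -0.27 (adjusted p = 0.284), where 37.3% of all tested genes were called lower and 35.8% higher. From E18 to P7, 2 rose and 2 fell, where 37.8% of all genes were called higher and 38.2% lower. From P7 to P35, 5 rose, where 37.9% of all genes were called higher, and from P35 to P70, 1 fell, where 4.91% were called lower. Klf1, the erythroid transcription factor, had medians of 0.489 CPM at E14 and 0.195 CPM at E18, and Trim10 of 0.620 and 0.161 CPM, both among the 4 genes that passed through E14 alone. Epor, the erythropoietin receptor, and Icam4 had medians of 1.37 and 0.573 CPM at P7 and 7.68 and 1.57 CPM at P35, and of 8.50 and 1.68 CPM at P70. Epor rose by 2.44 on the log2 scale from P7 to P35. Among the listed genes that did not pass the filter, Gata1, the erythroid and megakaryocyte factor, reached 15 counts in its highest library and Rhag 5. Epor made up a median of 22.5% of the summed CPM of the list at E14 and 74.5% at P70, so the sum at later ages is largely Epor. The deviations of the sum had r of 0.53 with those of Hbb-bs (rho 0.49) and, without Epor, r of 0.44 (rho 0.42), an omission chosen after seeing the data.

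Heme synthesis genes other than Alas2 were a list of 13, and all 13 passed the filter. From P35 to P70, when Alas2 fell by 1.48 on the log2 scale, 1 of the 13 passed the test, Alad, which rose by 0.14 (adjusted p = 0.0497), where 5.3% of all genes were called higher, and the median log2 fold change of the list was -0.04. From E14 to E18, 3 rose and 4 fell, and from P7 to P35, 6 rose and 4 fell, beside 35.8% and 37.3% of all tested genes called higher and lower at the first of these steps and 37.9% and 38.3% at the second. From E18 to P7, 7 of the 13 rose and 3 fell, beside 37.8% and 38.2% of all genes. Alas1, the form of the first enzyme that other tissues use, had medians of 33.8 CPM at E14 and 55.4 CPM at P70, by way of 35.3 (E18), 41.7 (P7) and 58.3 CPM (P35), and rose by 0.46 on the log2 scale from P7 to P35. Ppox, Fech and Abcb10, the other most abundant genes of the list, had medians of 70.2, 26.3 and 35.8 CPM at E14 and 45.5, 55.3 and 29.2 CPM at P70. Between genotypes 1 of the 13 was called by edgeR, Tmem14c, with a log2 fold change of -0.13 (adjusted p = 0.00152), where 4.43% of all tested genes were called. The summed deviations of this list had r of -0.22 with those of Hbb-bs.

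Genes that handle heme or free hemoglobin and the globins of other cells were tested with the rest. Of 8 heme and hemoglobin handling genes, 2 rose and 2 fell from E14 to E18, where 35.8% of all genes were called higher and 37.3% lower, 3 rose and none fell from E18 to P7 (37.8% and 38.2%), and 4 rose and 2 fell from P7 to P35 (37.9% and 38.3%). From P35 to P70, 1 passed the test, the heme exporter Flvcr1, which fell by 0.16 on the log2 scale, where 4.91% of all genes were called lower. Cd163, the scavenger receptor for hemoglobin bound to haptoglobin, had medians of 0.203 CPM at E14 and 2.37 CPM at E18 and rose by 3.20 on the log2 scale. Hmox1, the inducible heme oxygenase, fell by 0.60 over the same step (adjusted p = 0.00124), and Hmox2, the constitutive one, was at medians of 39.8 and 38.8 CPM. Of the 3 globins of brain and muscle cells, Ngb (neuroglobin) rose from a median of 0.592 CPM at E14 to 1.19 CPM at E18 and 4.98 CPM at P7 and fell to 3.05 CPM at P35 (log2 fold change -0.60, adjusted p = 0.00106). Cygb (cytoglobin) rose from 19.4 CPM at E18 to 24.4 CPM at P7 and 48.5 CPM at P35, and Mb (myoglobin) rose at the steps to E18 and P35, to 0.191 and 0.593 CPM, so that 2 of the 3 rose at each of the first 3 steps, beside 35.8%, 37.8% and 37.9% of all genes. Between genotypes 1 of the 3 was called by edgeR, where 4.43% of all tested genes were called. This was Ngb, higher in Setd1a+/- libraries, with a log2 fold change of 0.37 (adjusted p = 0.041), near the threshold. The 6 globin genes of red cells were not called, and whether Ngb differed from them was not tested. Of 12 genes of the red cell membrane and enzymes that brain cells also use, 5 rose and 3 fell from E14 to E18. From E18 to P7, 7 rose and 4 fell, and from P7 to P35, 6 rose and 2 fell. The shares of all genes at these 3 steps are given above. From P35 to P70, 2 fell, where 4.91% of all genes were called lower. The summed deviations of these 12 genes had r of -0.21 with those of Hbb-bs (rho -0.15). The same r was 0.38 for the 8 heme and hemoglobin handling genes (rho 0.40) and -0.14 for the 3 globins of brain and muscle cells (rho -0.0955).

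Markers of other blood and vessel cells were set against Hbb-bs in the same way. Over the 50 libraries, r of the summed deviations with Hbb-bs was 0.43 for 6 platelet genes, 0.37 for 9 neutrophil genes, 0.17 for 6 lymphocyte genes, 0.27 for 8 endothelial genes, 0.47 for 4 meningeal genes and 0.21 for 4 choroid plexus genes. It was -0.13 for 3 liver genes and -0.20 for 7 cortical genes. From P35 to P70, when 6 of the 8 genes fell, the median log2 fold change was -0.03 for the platelet genes, 0.54 for the 5 tested neutrophil genes, -0.03 for the endothelial genes, -0.24 for the meningeal and 0.21 for the choroid plexus genes, and none of them was called. From P7 to P35, 4 of the 5 neutrophil genes rose, where 37.9% of all genes were called higher, among them Ltf, which passed the filter through P35 alone, S100a8 (log2 fold change 3.62) and S100a9 (2.06), which stood at medians of 0.0266 and 0.0832 CPM at P7. Over the same step none of the 4 meningeal genes rose and 3 fell (median log2 fold change -1.33), 2 of the 8 endothelial genes rose and 4 fell (-0.31), 2 of the 6 platelet genes rose, of which Gp9 passed the filter through P35 alone, and 3 fell (0.25), and 1 of the 4 choroid plexus genes fell (-0.44), where 38.3% of all genes were called lower. Of the 6 lymphocyte genes 1 was tested, and it rose from P7 to P35 (0.81). This gene was not called at any other step between ages. From E18 to P7, when 2 of the 8 genes fell, 3 of the 6 platelet genes fell and 1 rose (median -0.53), 1 of the 5 neutrophil genes fell (-0.21) and 1 of the 8 endothelial genes rose (0.06), where 38.2% of all genes were called lower and 37.8% higher, and none of the 4 meningeal (-0.43) or 4 choroid plexus genes (0.18) was called. From E14 to E18 the median log2 fold change was 0.02 for the neutrophil and 0.74 for the meningeal genes, none of which was called, 1 platelet gene rose and 1 fell, Ppbp, which passed the filter through E14 alone (-0.19), 1 endothelial gene rose and 1 fell (-0.15), and 3 of 4 choroid plexus genes fell, where 37.3% of all genes were called lower, among them Ttr from a median of 200.4 CPM to 1.24 CPM. The part of these cells in the course of the globin genes was not tested.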

How the data were processed

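RNA from frontal cortex of 25 wild-type and 25 Setd1a+/- mice had been sequenced after poly-A capture. Per the study's methods, the authors trimmed reads with Trimmomatic, aligned them to GRCm38 with STAR and counted them per gene with featureCounts. Per the file headers, the version was 1.4.6-p2 and the annotation Ensembl release 102, and the command set no strand, no counting of multi-mapped fragments and no removal of marked duplicates. The deposited values were raw counts per gene, with 5 libraries in each of 10 groups and totals of 35507165 to 43907318. Of 55487 genes, 55141 had an entry in GENCODE vM21, and 16330 of 21897 protein-coding genes reached, in 5 libraries or more, the CPM that 10 counts give in a library of median size, and were tested.

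Counts were scaled by TMM and tested with edgeR 4.0.16 (quasi-likelihood, R 4.3.3), with Benjamini-Hochberg adjustment over all 16330 genes and an adjusted p under 0.05 as the threshold. Genotype was fitted with age as a covariate, within each age and as an interaction with age, and consecutive ages with genotype as a covariate. Log2 CPM used a prior count of 2, and RPKM used the exon length in the files. Exact permutation tests were two-sided. DESeq2 1.42.0, limma 3.58.1 (voom), other scalings and filters, a replicate block and omission of each library were the alternatives. Intervals of count ratios were exact at 95% and cover counting error only. The methods describe the postnatal mice as littermates, and neither they nor the labels say which mice shared a litter, so p-values measure the spread between these libraries. The 8 genes and the 14 gene lists were chosen with earlier results of these data known, and named genes were the 8, the listed genes and the 5 most alike by correlation. Some listed genes are not reported here.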

Additional observations from a re-analysis of the deposited data

Results flagged for a closer look

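Single libraries lay far from the other 4 of their group in 16 of 66 groups of gene, age and genotype that were checked by Dixon's test on CPM. The test flags about 1 in 20 groups by chance if values are normally distributed, which was not checked for these CPM without logs. The genes of 1 library are not independent. Of the 16 groups, 7 concerned wild-type replicate 5 at E14, which had 406 CPM of Hba-a1 beside 106 to 174 in the other wild-type libraries, 65.4 CPM of Hba-a2 beside 28.2 to 32.6, and 153 CPM of Hbb-bt beside 43.5 to 70.9. The same library had 256 CPM of Hbb-y beside 4.17 to 46.4, 26.9 CPM of Hba-x beside 2.09 to 8.08, 21.2 CPM of Alas2 beside 8.78 to 12.4, and 6.19 CPM of Slc4a1 beside 1.76 to 2.41. Setd1a+/- replicate 1 at E14 was low, with 98.1 CPM of Hbb-bs beside 324 to 390.0 and 5.75 CPM of Alas2 beside 18.8 to 23.1.

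At P7, wild-type replicate 5 had 96.7 CPM of Hba-a1 beside 45.6 to 56.4, 141 CPM of Hbb-bs beside 58.7 to 79.4, 22.8 CPM of Hbb-bt beside 10.8 to 12.997, and 8.65 CPM of Alas2 beside 5.17 to 5.39. Setd1a+/- replicate 2 at P7 had 92.5 CPM of Hba-a1 beside 39.4 to 52.2 and 9.59 CPM of Alas2 beside 3.93 to 5.31. Setd1a+/- replicate 1 at P35 had 1.55 CPM of Slc4a1, at 61 counts, beside 0.498 to 0.650.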

How the results depend on the processing

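Between genotypes, edgeR called none of the 8 genes, limma-voom called 1, the fit without both libraries with Xist counts called 2, and fits that left out 1 library each called 0 to 2, with 2 only without wild-type replicate 5 at E14. At E14 the counts were likewise 0 in edgeR, 2 without the libraries with Xist counts and 0 to 2 with 1 library left out. Without the libraries with Xist counts, Hba-x and Hbb-y had log2 fold changes of 1.52 and 1.59 over all ages and of 1.59 and 1.64 at E14. The genotype difference turned direction under limma-voom for Hba-a2 (0.10), Hbb-bt (0.0485) and Alas2 (0.12), without the libraries with Xist counts for Alas2 (0.00584), and under DESeq2 for Slc4a1 (-0.0116), and the cause was not tested. With 1 library left out, the log2 fold change between genotypes ran from -0.0846 to 0.0290 for Alas2 and from -0.15 to 1.55 for Hbb-y, and at E14 from -0.26 to 1.64 for Hbb-y. For Hbb-bs it ran from -0.49 to 0.11 at P7 and from -0.0555 to 0.38 at P35, and for Alas2 from E18 to P7 from -0.0131 to 0.21.

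Replicate numbers were not treated as pairs, since the labels name no shared litter and not every pair's correlation was over 0.1: over 25 pairs, the correlation of deviations ran from -0.20 to 0.46 (median 0.0636) with 9 pairs over 0.1. As a hint from the data only, 17 of 50 libraries correlated best with their own number, beside 10 if each of 5 numbers were as likely. With the replicate block, 0 of the 8 genes were called between genotypes, in the interaction and at each age. The block called 17 of all tested genes (0.104%) for E14 and 3 in the interaction. E18 had 37 such genes, P7 had 20 and P35 had 3. Over all ages their number lay within the 648 to 828 of the alternatives, and for P70 within 30 to 78. At E14, 4 of the 8 genes had an unadjusted p under 0.05 with the block, as did 11.3% of all tested genes. From E18 to P7 the log2 fold change of Hba-a1 ran from -0.65 to -0.38 with 1 library left out, and it was called without any 1 of wild-type replicates 2 and 5 and Setd1a+/- replicate 1 at E14, wild-type replicates 1 and 5 and Setd1a+/- replicates 4 and 5 at E18, wild-type replicate 5 and Setd1a+/- replicate 2 at P7, and Setd1a+/- replicate 1 at P35. The block was not run for the steps between ages. Over the 10 alternatives, the number of all genes called between genotypes ran from 3 to 756 at E14 beside 21 in edgeR, from 7 to 111 at E18 beside 18, from 16 to 135 at P7 beside 120, from 0 to 11 at P35 beside 0 and from 30 to 78 at P70 beside 38. The interaction had 0 to 21 beside 0. At E14 the lowest came from scaling by library size only and the highest from the fit without the libraries with Xist counts. Counts of 7 or fewer limit Hbb-y and Hba-x after E14, and 0 to 14 counts limit Slc4a1 at P70.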
